A study of Homo sapiens with 4 samples.

Results

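A dense culture of H9 human embryonic stem cells grown with added bicarbonate was set against a sparse culture of the same line grown without it, across every gene whose probe was detected on both arrays. H9 is an established pluripotent line, kept here on matrigel in E8, a defined serum-free medium that was renewed every day. The dense culture stood above 90% confluence and had 20 mM sodium bicarbonate added to its E8 (titled HD bicarb, the buffered dense culture below). The sparse culture stood below 70% confluence in plain E8 (titled LD ctrl, the sparse control). A dense culture in plain E8 (HD ctrl, the dense control) and a sparse culture with the same 20 mM addition (LD bicarb, the buffered sparse culture) give the levels beside which these are read. All were collected on day 2, and each was measured on 1 Illumina expression array.

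A gene was represented by its brightest probe and counted as measured when that probe had a detection p-value under 0.01 on both arrays, which held for 9127 of the 10457 genes detected anywhere in the series. Both density and bicarbonate differ between the 2 cultures, so their parts in a difference cannot be told apart from this pair alone. With 1 array a side there is no replicate, no test and no p-value. "Higher" and "lower" below describe these arrays only, and levels and differences are in normalized log2 intensity, where a difference of 1 is 2-fold.

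Human pluripotent stem cells take up glucose rapidly and release much of it as lactate, so a crowded plate acidifies its medium and uses up glucose and oxygen between feeds. Bicarbonate is the buffer that, with carbon dioxide, sets the pH of culture medium. Low oxygen stabilises the HIF transcription factors, which switch on genes of glucose uptake, glycolysis and mitophagy, while the E2F factors drive the genes of DNA replication in cycling cells.

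The buffered dense array was the dimmest before normalization, with a median probe intensity of 117.4, against 153.5 to 166.6 on the other 3 arrays, and it had the most detected probes, 15213 of 47293, against 14878 in the sparse control. The part of this brightness difference in any result was not tested. All 8 pluripotency markers, among them POU5F1, NANOG and SOX2, were detected on every array. None of 6 mesoderm and none of 6 trophoblast markers was detected on any. POU3F1 was the 1 of 6 neuroectoderm markers detected.

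Most genes lay close together in both cultures. The median absolute difference was 0.284, or 1.22-fold, and 7435 of the 9127 genes (81.5%) differed by less than 1.5-fold. At least 2-fold higher in the buffered dense culture were 234 genes (2.56%), and at least 2-fold lower were 132 (1.45%), together 4.01%. At the smaller size of 1.5-fold, 909 genes (9.96%) were higher and 783 (8.58%) lower. At least 4-fold higher were 21 genes and at least 4-fold lower were 3. The sign balance depended on the scaling. With the arrays set to equal medians instead of equal quantiles, the whole distribution moved by -0.213. Then 123 genes were 2-fold higher and 312 lower. List medians given below under equal medians carry that shift, unless given relative to all genes.

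**Figure D1:**
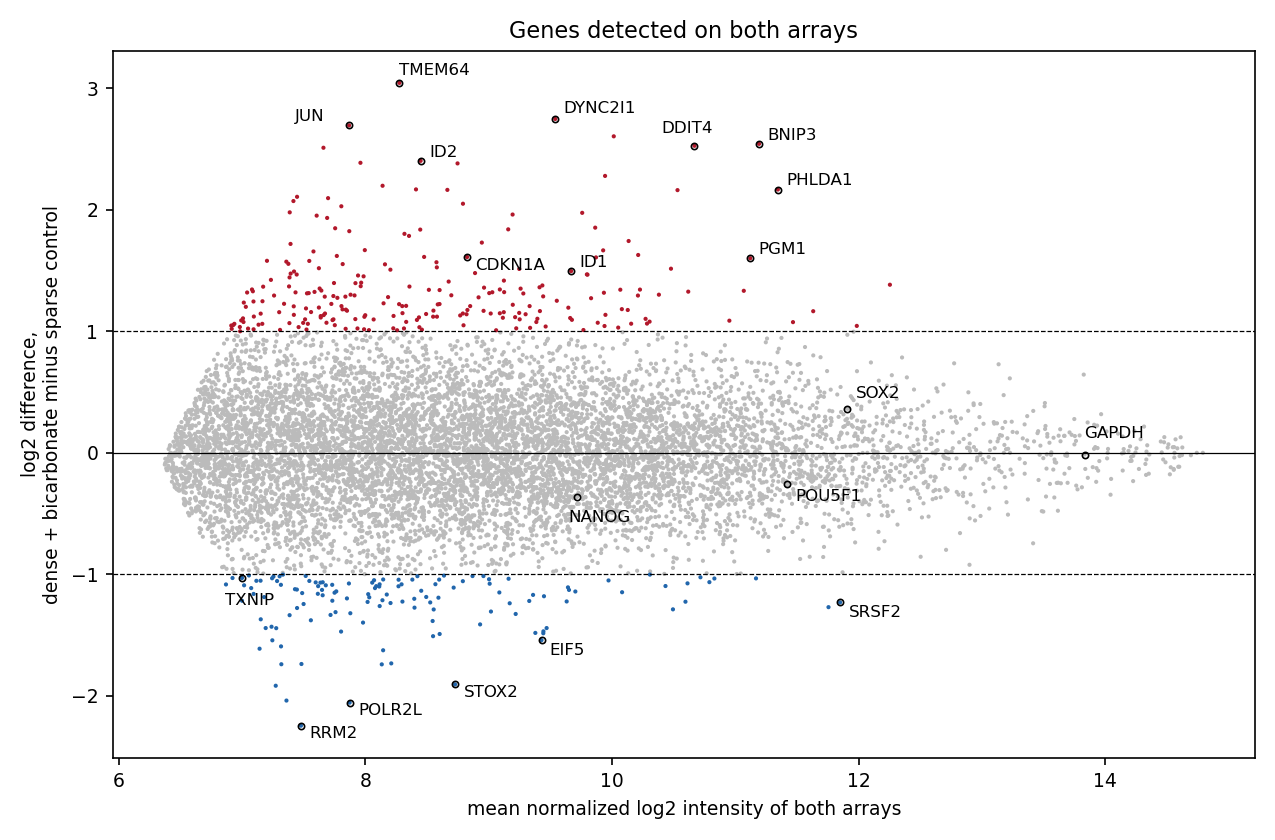
Log2 difference, buffered dense culture minus sparse control (vertical axis), against the mean normalized log2 intensity of both arrays (horizontal axis), 1 point per gene for 9127 genes; red and blue points are at least 2-fold higher or lower, and dashed lines mark 2-fold. TMEM64 lies at 3.05 and RRM2 at -2.25, while POU5F1, NANOG, SOX2 and GAPDH lie within 0.36 of 0.

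The plot of difference against intensity shows that fewer of the bright genes were far apart. With the genes cut into 4 equal parts by brightness, 2.85% of the dimmest were 2-fold higher and 1.97% lower, and of the brightest 1.05% were higher and 0.53% lower. Different probes of a gene read the same RNA, and 1968 genes had a second detected probe. Over these genes the 2 probes' differences had a standard deviation of disagreement of 0.36, which holds no variation between cultures. Of 38 higher genes with a second probe, 26 were at least 1.5-fold higher on it too, where 6.15% of all second probes were. Of 25 lower genes, 16 were at least 1.5-fold lower on it, where 12.35% of all second probes were.

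The highest gene was TMEM64, a multi-pass membrane protein. It stood at 9.80 in the buffered dense culture, 9.26 in the dense control, 7.29 in the buffered sparse culture and 6.75 in the sparse control, a difference of 3.05 (8.26-fold), and 3.0 on its second probe. Both dense arrays were thus above both sparse arrays. DYNC2I1, an intermediate chain of the dynein that moves cargo in cilia, was 2.75 higher and ESYT2, a tether between the endoplasmic reticulum and the plasma membrane, 2.61 higher. JUN, a subunit of the AP-1 transcription factor, stood at 9.22 in the buffered dense culture, 8.85 in the dense control, 6.96 in the buffered sparse culture and 6.52 in the sparse control, 2.70 apart.

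The other high genes had varied roles. FILIP1, which binds filamin, was 2.39 higher and the kinase gene NUAK2 2.16. GRPR, the receptor of gastrin-releasing peptide, was 2.17 higher. GOLGA6C was 2.20 higher, but it belongs to a family of near-identical golgin genes that its probe may not separate. For all 15 genes both dense arrays stood above both sparse ones, and in each the buffered dense array was the highest of the 4. The genes were chosen by the buffered dense minus sparse control difference, which favours this order. UPK1A, FILIP1 and GOLGA6C, and among the lowest genes RRM2 and NCOA5, were not detected on at least 1 of the other 2 arrays. In the sparse control TMEM64, JUN, UPK1A and FILIP1 lay near the detection limit, at detection p-values of 0.003896104 to 0.007792208. Their folds are less certain for that. The same holds for EGR1, DDB2, MT1E and some other higher list members below.

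**Figure D2:**
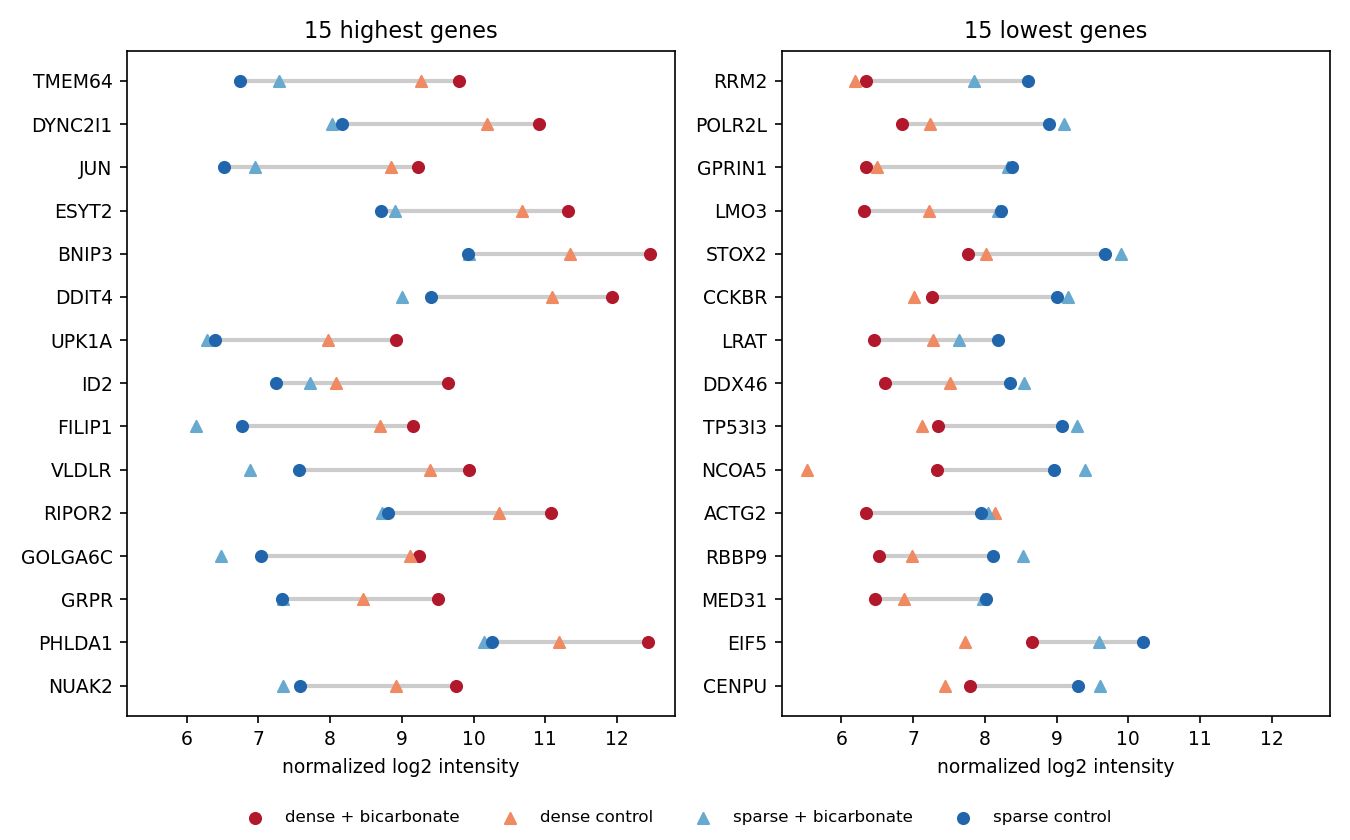
Normalized log2 intensity (horizontal axis) of the 15 highest and 15 lowest genes on each array; circles are the 2 cultures compared, joined by a grey bar, triangles the other 2 cultures. For the 15 highest genes both dense arrays lie above both sparse arrays, and among the lowest only ACTG2 has a dense control level (8.14) above its sparse control level (7.95). The genes were chosen by the difference between the circles.

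The lowest gene was RRM2, the small subunit of ribonucleotide reductase, which makes the building blocks of DNA. It stood at 6.35 in the buffered dense culture, 6.19 in the dense control (not detected), 7.85 in the buffered sparse culture and 8.60 in the sparse control, a difference of -2.25. POLR2L, a small subunit shared by the nuclear RNA polymerases, was at -2.06. GPRIN1, a protein of neurite outgrowth, was at -2.04. These were the 3 genes at least 4-fold lower.

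Further down, genes of several unrelated roles were lower. LMO3, a LIM-domain transcriptional cofactor, differed by -1.92 and STOX2, a storkhead-box protein, by -1.91. CCKBR, the gastrin receptor, and LRAT, which stores retinol as esters, both differed by -1.74. The plot of the extreme genes shows 14 of the 15 with both dense arrays below both sparse arrays, an order that their choice by the same difference favours. The exception was ACTG2, smooth muscle actin, at 6.34 in the buffered dense culture, 8.14 in the dense control, 8.04 in the buffered sparse culture and 7.95 in the sparse control. Its detection p-value of 0.009090909 on the weaker array placed it just inside the limit, together with RDM1 at a difference of 2.11. RRM2, GPRIN1 and LMO3 had that same p-value in the buffered dense culture, so they too lie at the limit there. LRAT, MED31, DDX46 and RBBP9, also among the 15, lay near it there, at p-values of 0.003896104 to 0.006493506. So did CA2 and LEFTY2, named below, and the folds of all these genes are less certain for that. SNORD80 (-1.0) and TMT1A (-1.01), both at a p-value of 0.01038961, fell just outside the limit. Only 2 of the 15 had a second detected probe, and neither repeated the difference on it. TP53I3, a p53-induced oxidoreductase, was at -1.73 on its brightest probe and 0.07 on its second, and EIF5, a translation initiation factor, at -1.54 and -0.11.

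Some genes were detected in 1 of the 2 cultures only, and for them the fold is a lower bound, taken against the dimmest detected probe of the array that lacked the gene, or against the gene's own probe there if that was brighter. Detected in the buffered dense culture only were 657 genes, 34 of them with a bound of at least 2-fold. DDIT3, the stress transcription factor CHOP, was at least 11.04-fold higher, with 9.84 in the buffered dense culture, 8.41 in the dense control and an undetected 6.22 on each sparse array. GDF15, a secreted stress cytokine, was at least 7.99-fold higher, with 9.37 in the buffered dense culture and 11.27 in the dense control. PDGFB, a platelet-derived growth factor subunit, was at least 6.22-fold higher and MMP23B, a membrane-bound metalloprotease, at least 5.40-fold.

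Detected in the sparse control only were 396 genes, 30 with a bound of at least 2-fold. FOXA2, a pioneer factor of endoderm, was at least 7.5-fold lower in the buffered dense culture. Its measured level was 4.82 there and 4.66 in the dense control, both undetected, against 10.15 in the buffered sparse culture and 9.22 in the sparse control. In bulk RNA, fewer cells of a type and less RNA per cell cannot be told apart. LEFTY1, a secreted NODAL inhibitor, was at least 4.99-fold lower. SORBS2, an adaptor of the actin cytoskeleton, was at least 3.39-fold lower and GPRIN2, a relative of GPRIN1, at least 3.13-fold.

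HIF targets had the largest median difference of the gene lists with more than 4 measured members. On the list of hypoxia targets outside the core of glycolysis, 13 of 24 measured were at least 2-fold higher in the buffered dense culture (against 2.56% overall), 17 at least 1.5-fold higher and 1 (HILPDA, a lipid droplet protein) at least 1.5-fold lower. The list's median difference was 1.04, beside 0.00 over all measured genes. BNIP3, a mitophagy receptor, stood at 12.46 in the buffered dense culture, 11.35 in the dense control, 9.94 in the buffered sparse culture and 9.92 in the sparse control, 2.54 apart. DDIT4, an inhibitor of the growth kinase mTORC1, stood at 11.93 in the buffered dense culture, 11.09 in the dense control, 9.0 in the buffered sparse culture and 9.41 in the sparse control, 2.53 apart. For both genes the buffered dense array was the highest and the dense control the next.

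UPK1A, a uroplakin of bladder epithelium, was 2.51 higher and VLDLR, a lipoprotein receptor, 2.38. Lower in size but in the same direction were FAM162A, a mitochondrial protein, at 1.73, and the collagen prolyl hydroxylases P4HA2 at 1.66 and P4HA1 at 1.14. ERO1A, an oxidase of the endoplasmic reticulum, differed by 1.42 and the histone demethylase KDM3A by 1.03. VEGFA, the angiogenic growth factor, differed by 0.59 and ANGPTL4 by 0.06. Neither CA9 nor NDRG1, other HIF targets, had its brightest probe detected on both arrays.

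On the 20 genes of this list measured on all 4 arrays, the median difference was 1.04 for the buffered dense culture minus the sparse control. It was 0.62 for the dense control minus the buffered sparse culture, a comparison that shares no array with it. Against the sparse control, the dense control had a median of 0.51. The buffered dense culture minus the dense control gave 0.41 and the buffered minus the control sparse culture -0.02. These last 3 share arrays with the first comparison and are given side by side only.

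HIF binds DNA at a short core sequence. RefSeq promoter windows on GRCh38.p14, 250 bases before to 50 after the start, were searched for the HIF core, ACGTG or GCGTG on either strand. The windows of the 2 largest hypoxia-list differences follow, BNIP3 at chr10:131981874-131982173 on the minus strand and DDIT4 at chr10:72273674-72273973 on the plus strand, with matches in capitals.
BNIP3: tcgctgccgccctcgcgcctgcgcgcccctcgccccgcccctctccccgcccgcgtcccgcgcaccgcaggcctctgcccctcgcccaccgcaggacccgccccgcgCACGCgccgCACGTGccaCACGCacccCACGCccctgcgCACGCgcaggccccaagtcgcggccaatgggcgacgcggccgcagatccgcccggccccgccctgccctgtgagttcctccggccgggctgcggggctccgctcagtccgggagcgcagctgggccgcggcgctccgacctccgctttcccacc
DDIT4: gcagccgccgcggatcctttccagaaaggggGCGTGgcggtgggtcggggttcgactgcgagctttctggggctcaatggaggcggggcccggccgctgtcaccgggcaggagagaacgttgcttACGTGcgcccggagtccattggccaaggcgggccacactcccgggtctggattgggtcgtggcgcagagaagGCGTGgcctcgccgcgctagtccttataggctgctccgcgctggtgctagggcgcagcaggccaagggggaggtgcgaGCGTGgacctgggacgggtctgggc
The BNIP3 window held 6 matches, 5 of them on the reverse strand, with 2 of the 6 overlapping in the letters CACGTG, and the DDIT4 window held 4. A match was present in 18 of the 20 hypoxia-list promoters on file (90.0%), in 64.4% of the 7497 measured genes with a promoter and in 64.4% of 188 promoters of 2-fold higher genes. ACGTG alone was in 12 of the 20 (60.0%), against 27.8% of measured genes. The core is short and common, being present in 48.4% of all 27305 promoters, so a match describes the letters only. As the hypoxia list was made of HIF targets, a high share on it can follow from that choice.

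Genes of glycolysis were higher by less, and not at every step. At 1.5-fold, 11 of the 30 measured were higher (9.96% of all genes were), 3 of these past 2-fold. None was lower (8.58% of all genes were), and the median was 0.39. PGM1, which links glycogen to glycolysis, stood at 11.92 in the buffered dense culture, 11.61 in the dense control, 10.17 in the buffered sparse culture and 10.32 in the sparse control, 1.60 apart. The enolase ENO2 differed by 1.52, and PFKFB4, which sets the level of a glycolytic activator, by 1.25. PGK1, phosphoglycerate kinase, lay just under 2-fold at 0.997.

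The glucose transporter SLC2A1 differed by 0.97 and LDHA, which makes lactate, by 0.73. GAPDH, an enzyme of the same pathway, differed by -0.01 and ENO1 by 0.22. PFKFB3, PFKFB4 and GBE1 stand on both the hypoxia and the glycolysis list, so the lists are not separate evidence. Under equal medians the glycolysis median was 0.13 and the hypoxia median 0.78. Relative to all genes under that scaling they were 0.34 and 1.0.

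Genes that carry acid and bicarbonate across membranes showed no common direction. On this list CA4, a membrane-bound carbonic anhydrase, was the 1 gene at least 2-fold higher, at 7.63 in the buffered dense culture, 6.53 in the dense control, 6.62 in the buffered sparse culture and 6.43 in the sparse control. The buffered dense array was thus the only one of the 4 apart for CA4. SLC9A5, a sodium-proton exchanger, differed by 0.70 and CA2, a cytosolic carbonic anhydrase, by -0.61. The bicarbonate transporter SLC4A5 differed by 0.47. The median of the 13 measured was -0.05. For the vacuolar proton pump, lysosome and autophagy, 4 of 40 members were higher and 3 lower at 1.5-fold, near the 9.96% and 8.58% of all genes.

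Of the ID genes, inhibitors of differentiation that BMP signalling switches on, ID2 and ID1 were more than 2-fold higher in the buffered dense culture and ID3 was not, at 0.33. ID2 stood at 9.65 in the buffered dense culture, 8.08 in the dense control, 7.72 in the buffered sparse culture and 7.25 in the sparse control, a difference of 2.40, and 2.11 on its second probe. ID1 stood at 10.42 in the buffered dense culture, 7.97 in the dense control, 9.12 in the buffered sparse culture and 8.92 in the sparse control. Its difference was 1.5, and the dense control lay below both sparse arrays. SMAD7, an inhibitor of TGF-beta signalling, went the other way, with 7.05 in the buffered dense culture, 6.89 in the dense control, 8.10 in the buffered sparse culture and 8.38 in the sparse control, -1.33 apart. Of the 10 measured genes of the ID and BMP list, 4 were at least 1.5-fold higher and 1 lower. The shares over all genes were 9.96% and 8.58%.

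Immediate early genes and targets of FGF-ERK signalling, which E8 sustains through its FGF2, were higher in 10 of 31 measured members at 1.5-fold. Of these, 5 passed 2-fold, and 1 member was lower at 1.5-fold. Over all genes 9.96% were higher and 8.58% lower at 1.5-fold. The median stood at 0.42, which was 0.19 under equal medians and 0.4 relative to all genes there. Besides JUN, PHLDA1, an ERK-induced gene, stood at 12.43 in the buffered dense culture, 11.19 in the dense control, 10.15 in the buffered sparse culture and 10.26 in the sparse control. It was 2.17 higher, and 1.51 on its second probe. EGR1, a zinc finger transcription factor, was 2.10 higher and the RNA-decay factor ZFP36L1 1.33. DUSP2, a phosphatase of ERK, was the lower member, at -0.81.

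The next list holds targets of YAP and TEAD, the effectors that Hippo signalling restrains at high cell contact, and some of their regulators. At 1.5-fold 11 of 25 measured members were higher and none lower, against 9.96% and 8.58% of all genes. The 11 include TEAD3 itself, the Hippo kinase STK3 and the YAP-binding AMOT, so the count is not one of targets alone. The median was 0.35, which was 0.14 under equal medians and 0.35 relative to all genes there. The leading member was NUAK2, at 9.75 in the buffered dense culture, 8.92 in the dense control, 7.34 in the buffered sparse culture and 7.58 in the sparse control. The matricellular gene CCN1 was 1.06 higher and THBS1, thrombospondin, 0.97. CCN2, a widely used YAP readout, differed by 0.91. Among 47 genes of the matrix and integrins, 13 were higher and 2 lower at that size, around a median of 0.29. That median was 0.04 under equal medians and 0.25 relative to all genes there. COL1A1, a collagen chain, stood at 9.35 in the buffered dense culture, 8.36 in the dense control, 8.15 in the buffered sparse culture and 8.05 in the sparse control, 1.30 apart.

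COL1A1 is also a fibroblast marker. Of 6 such markers 4 were detected on every array. Their mean level was 10.29 in the buffered dense culture, 9.94 in the dense control, 9.44 in the buffered sparse culture and 9.58 in the sparse control. THY1, the brightest, at 12.52 in the buffered dense culture and 12.84 in the dense control, raised this mean but differed by only 0.21. The others differed by 1.30 (COL1A1), 0.75 (COL1A2) and 0.59 (VIM). LUM and DCN, which define fibroblasts, were detected on neither array compared. The part of such cells in the matrix genes was not tested. On the wider list of fibroblast and mesenchyme genes, 6 of 10 measured were at least 1.5-fold higher, where 9.96% of all genes were. The leading member was S100A4, a calcium-binding protein, at 1.56.

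p53 targets were mixed. At 1.5-fold, 8 of the 25 measured were higher and 2 lower, where 9.96% and 8.58% of all genes were. The median was 0.34, which was 0.10 under equal medians and 0.32 relative to all genes there. DDB2, a sensor of ultraviolet damage, was 2.03 higher, and SESN2, a nutrient sensor, 1.25. Of the members counted, TNFRSF10B differed by 1.18 on its brightest probe and 0.06 on its second, and TP53I3 by -1.73 and 0.07. CDKN1A, the p21 inhibitor of the cell cycle, stood at 9.63 in the buffered dense culture, 12.30 in the dense control, 7.72 in the buffered sparse culture and 8.02 in the sparse control. The buffered dense culture was thus 1.61 above the sparse control and well below the dense control.

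Metallothioneins, small proteins that bind zinc and copper, were also above the sparse control in the buffered dense culture and higher still in the dense control. MT1E stood at 8.33 in the buffered dense culture, 9.87 in the dense control, 7.32 in the buffered sparse culture and 6.75 in the sparse control, 1.58 apart, and MT1G differed by 1.41. All 4 measured were above 0 with a median of 1.19, but their sequences are alike and a probe may read more than 1 of them.

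TXNIP, an inhibitor of thioredoxin and of glucose uptake that the glucose sensor MondoA switches on, had another order. It stood at 6.48 in the buffered dense culture, 10.98 in the dense control, 7.97 in the buffered sparse culture and 7.52 in the sparse control. The buffered dense array was the lowest of the 4 and the dense control the highest. Its difference was -1.03, but its detection p-value of 0.005194805 in the buffered dense culture was near the limit, so this size is less certain. ARRDC2, of the same arrestin family, differed by -0.67. Among 20 measured FOXO targets, genes of growth factor withdrawal, 7 were at least 1.5-fold higher and 2 lower. The shares over all genes were 9.96% and 8.58%. KLHL24 differed by 1.84 and PINK1, a kinase of mitophagy, by 1.18.

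Of the list of DNA replication and S phase, 18 of 51 measured members were lower at 1.5-fold (8.58% of all genes were), 6 of these at 2-fold, and none was higher. The list's median was -0.39, which was -0.64 under equal medians and -0.43 relative to all genes there. After RRM2 came GINS3, a subunit of the replicative helicase, at 7.85 in the buffered dense culture, 7.67 in the dense control, 9.40 in the buffered sparse culture and 9.24 in the sparse control, -1.39 apart. UHRF1, which carries DNA methylation through replication, differed by -1.23, and the S-phase cyclin CCNE1 by -1.18. For each of these genes both dense arrays lay below both sparse ones. The helicase subunits MCM5 and MCM4 differed by -0.89 and -0.88, and the sliding clamp PCNA by -0.63.

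The E2F site was searched in the same promoter windows as TTTCCCGC, TTTGGCGC, TTTCGCGC or TTTGCCGC on either strand. The windows of the 2 largest replication-list differences with a match follow, GINS3 at chr16:58392221-58392520 and UHRF1 at chr19:4909251-4909550, both on the plus strand, each with 1 match in capitals, read on the reverse strand.
GINS3: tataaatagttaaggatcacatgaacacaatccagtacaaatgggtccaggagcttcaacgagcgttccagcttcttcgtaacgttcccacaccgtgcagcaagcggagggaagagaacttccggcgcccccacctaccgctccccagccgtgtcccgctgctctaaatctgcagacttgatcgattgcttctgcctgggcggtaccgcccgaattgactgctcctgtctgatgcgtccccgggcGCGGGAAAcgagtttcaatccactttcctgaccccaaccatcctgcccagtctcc
UHRF1: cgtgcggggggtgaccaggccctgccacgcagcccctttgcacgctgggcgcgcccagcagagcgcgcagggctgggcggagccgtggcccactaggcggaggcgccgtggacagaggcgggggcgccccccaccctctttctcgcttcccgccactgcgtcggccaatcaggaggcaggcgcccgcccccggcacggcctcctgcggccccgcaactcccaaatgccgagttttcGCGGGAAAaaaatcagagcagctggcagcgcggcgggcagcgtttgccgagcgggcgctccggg
Such a match was present in 20 of 46 replication-list promoters (43.5%), in 15 of 108 promoters of 2-fold lower genes (13.9%), in 5.3% of those of 2-fold higher genes, in 5.8% of those of measured genes and in 3.3% of all promoters. Some replication genes are themselves among the 2-fold lower genes counted. E2F factors drive replication genes in general, so a high share on this list can follow from its making. A match describes the letters only.

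The list of G2 and mitosis had 11 of 57 members higher and 2 lower at 1.5-fold, against 9.96% and 8.58% of all genes. Its median was 0.16, which was -0.13 under equal medians and 0.09 relative to all genes there. INCENP, of the chromosomal passenger complex, was 1.30 higher, the centromeric histone CENPA 1.11 and the mitotic kinase NEK2 1.08. The G1 cell cycle list split, with CDKN1C, another inhibitor of the cycle, 1.02 higher and the phosphatase CDC25A at -1.15.

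**Figure D3:**
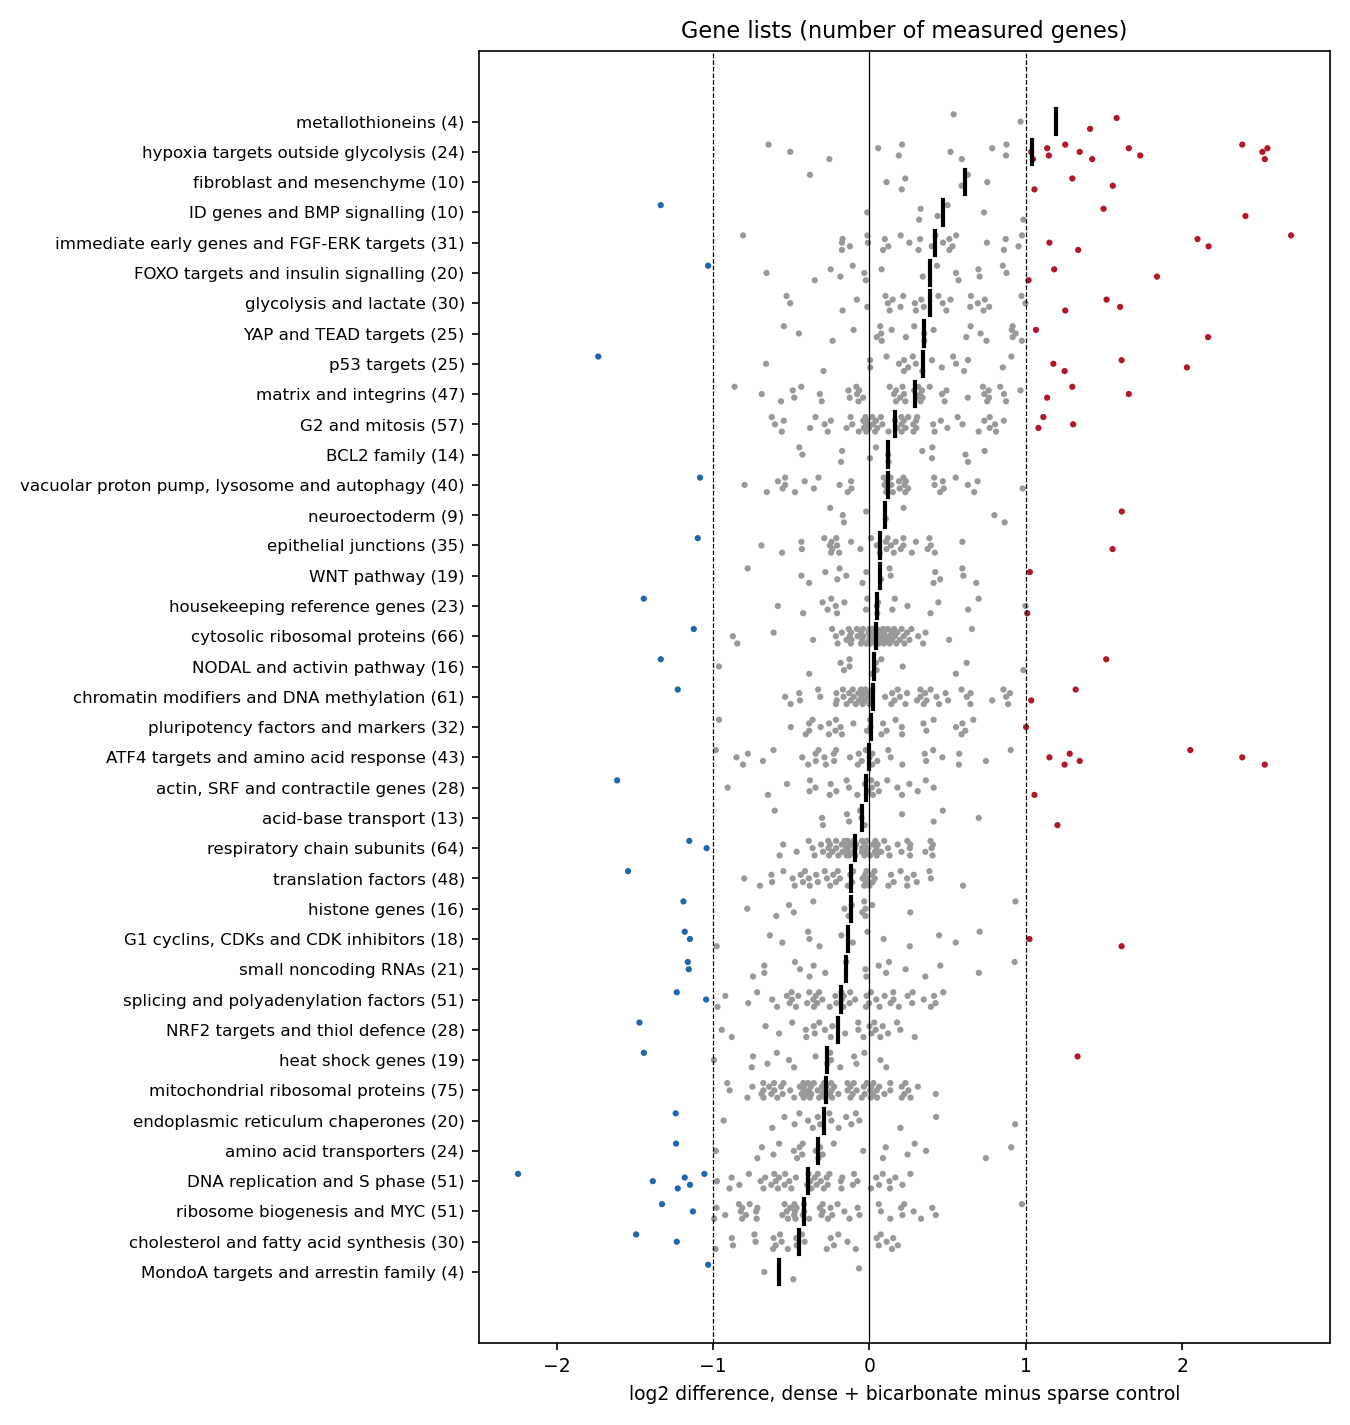
Log2 difference, buffered dense culture minus sparse control (horizontal axis), of each measured gene (points) of the gene lists with at least 4 measured genes, with the list median as a black bar; red and blue points are at least 2-fold higher or lower, and dashed lines mark 2-fold. Among lists with more than 4 measured genes, hypoxia targets have the highest median (1.04) and cholesterol and fatty acid synthesis the lowest (-0.45). Metallothioneins (1.19) and the MondoA and arrestin list (-0.58), with 4 genes each, lie beyond them.

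In the plot of gene lists, only the 4 genes of the MondoA and arrestin list had a lower median (-0.58) than sterol synthesis and ribosome biogenesis. The replication list was close to these at -0.39, and mitochondrial ribosomal proteins had a median of -0.28. Translation factors, at -0.12, and respiratory chain subunits, at -0.09, were nearer to the median of all genes. Of the 51 measured genes of ribosome biogenesis, whose median was -0.42, 14 were lower by 1.5-fold or more and 1 was higher. Over all genes 8.58% were lower and 9.96% higher at this size. The list median was -0.68 under equal medians and -0.47 relative to all genes there. NOP16, a nucleolar protein, stood at 8.56 in the buffered dense culture, 9.11 in the dense control, 10.15 in the buffered sparse culture and 9.88 in the sparse control, -1.33 apart, and GRWD1, a ribosome assembly factor, differed by -1.13. The higher member was MYC, the growth transcription factor itself, at 0.97, with 10.86 in the buffered dense culture, 10.07 in the dense control, 10.06 in the buffered sparse culture and 9.88 in the sparse control. Mitochondrial ribosomal proteins were at least 1.5-fold lower in 13 of 75 and higher in none. The 66 measured cytosolic ribosomal proteins had a median of 0.04, which was -0.11 under equal medians and 0.11 relative to all genes there.

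Cholesterol and fatty acid synthesis, the SREBP programme, had 10 of its 30 measured genes lower by 1.5-fold or more and none higher. Over all genes 8.58% were lower and 9.96% higher at this size. The median of the list was -0.45, which was -0.72 under equal medians and -0.51 relative to all genes there. IDI1, an isoprenoid isomerase, stood at 7.86 in the buffered dense culture, 8.93 in the dense control, 9.66 in the buffered sparse culture and 9.35 in the sparse control, -1.49 apart. The desaturase FADS2 differed by -1.23 and ACAT2, at the start of the sterol pathway, by -0.98. Splicing and polyadenylation factors were at least 1.5-fold lower in 8 of 51 and higher in none, led by the splicing factor SRSF2 at -1.23. Amino acid transporters were lower in 5 of 24 and higher in 2, the higher count being near its share over all genes. The glutamate transporter SLC1A3 led them at -1.24.

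Of the stress programmes, the ATF4 list was split. The medians were -0.27 for heat shock genes, -0.29 for chaperones of the endoplasmic reticulum and -0.2 for NRF2 targets. Among 43 measured ATF4 targets, the genes of the amino acid response, 7 were at least 2-fold higher and none 2-fold lower. Over all genes 2.56% were 2-fold higher and 1.45% lower. But 6 members were at least 1.5-fold lower, where 8.58% of all genes were, and the median was 0.00. Those higher included CHAC1, which degrades glutathione, at 2.05, with 9.82 in the buffered dense culture, 8.64 in the dense control, 7.24 in the buffered sparse culture and 7.77 in the sparse control. DDIT4, VLDLR and STC2, the other leading members, are on the hypoxia list too. The amino acid transporter SLC6A9 differed by -0.98 and the serine enzyme PSPH by -0.85.

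The shares over all genes to set beside the next lists are 8.58% lower and 9.96% higher at 1.5-fold. In the heat shock list 6 of 19 measured members were lower and 1 higher, with HSPA1B, an inducible HSP70 that is near-identical to HSPA1A, at -1.44 and HSPB8, a small heat shock protein, at 1.33. Chaperones of the endoplasmic reticulum were lower in 3 of 20 and higher in 1, which is near those shares, with CRELD2 at -1.24 and HSPA5, the main HSP70 there, at -0.93. NRF2 targets were at least 1.5-fold lower in 4 of 28 and higher in none. NQO1, a quinone reductase, stood at 8.71 in the buffered dense culture, 9.59 in the dense control, 10.15 in the buffered sparse culture and 10.18 in the sparse control, -1.47 apart.

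The core of pluripotency differed little. POU5F1 (OCT4) stood at 11.29 in the buffered dense culture, 11.20 in the dense control, 11.05 in the buffered sparse culture and 11.55 in the sparse control, and its difference was -0.26. NANOG differed by -0.36, and SOX2 by 0.36 on its brightest probe and -0.04 on its second. On the wider pluripotency list, 5 of 32 measured members were higher and 1 lower at 1.5-fold, against 9.96% and 8.58% of all genes. The median was 0.01, which was -0.24 under equal medians and -0.03 relative to all genes there. UTF1, a chromatin factor of undifferentiated cells, was the 1 gene at 2-fold, 1.0 higher, and LEFTY2, a NODAL inhibitor like LEFTY1, was the lower one, at -0.96.

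Lineage genes were few. Of the 6 endoderm markers, FOXA2 and AFP were detected on both sparse arrays and on neither dense array. The other 4, among them SOX17, were detected on no array. On the wider endoderm list, the 2 genes measured in both cultures differed little, FOXA3 by 0.0 and KIT by -0.12. The neuroectoderm list had 3 of 9 measured genes at least 1.5-fold higher, where 9.96% of all genes were. Its defining markers PAX6 and SOX1 were undetected. NPTX1, a neuronal pentraxin, stood at 9.28 in the buffered dense culture, 7.45 in the dense control, 6.49 in the buffered sparse culture (not detected) and 7.67 in the sparse control, 1.61 apart. KDR, a VEGF receptor and the only measured gene of the mesoderm list, was 1.21 higher, and GABRP, a GABA receptor subunit of the trophoblast and amnion list, 1.44.

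Over the 8554 genes detected on all 4 arrays, the buffered dense culture and the sparse control were 2-fold apart at 315 genes, 195 higher and 120 lower. The dense control had 298 genes (3.48%) higher and 252 (2.95%) lower than the sparse control. The buffered dense culture had 300 genes (3.51%) higher and 240 (2.81%) lower than the buffered sparse culture. The dense control and the buffered sparse culture were apart at 644 genes. The 2 cultures of equal density were much nearer to each other, with 45 genes (0.526%) higher and 44 (0.514%) lower with bicarbonate when dense, and 5 (0.0585%) higher and 9 (0.105%) lower when sparse. The median absolute difference was 0.283 for the buffered dense culture against the sparse control, and 0.321 for the dense against the sparse control. Pairs that share an array are not independent, and no pair has a replicate.

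**Figure D4:**
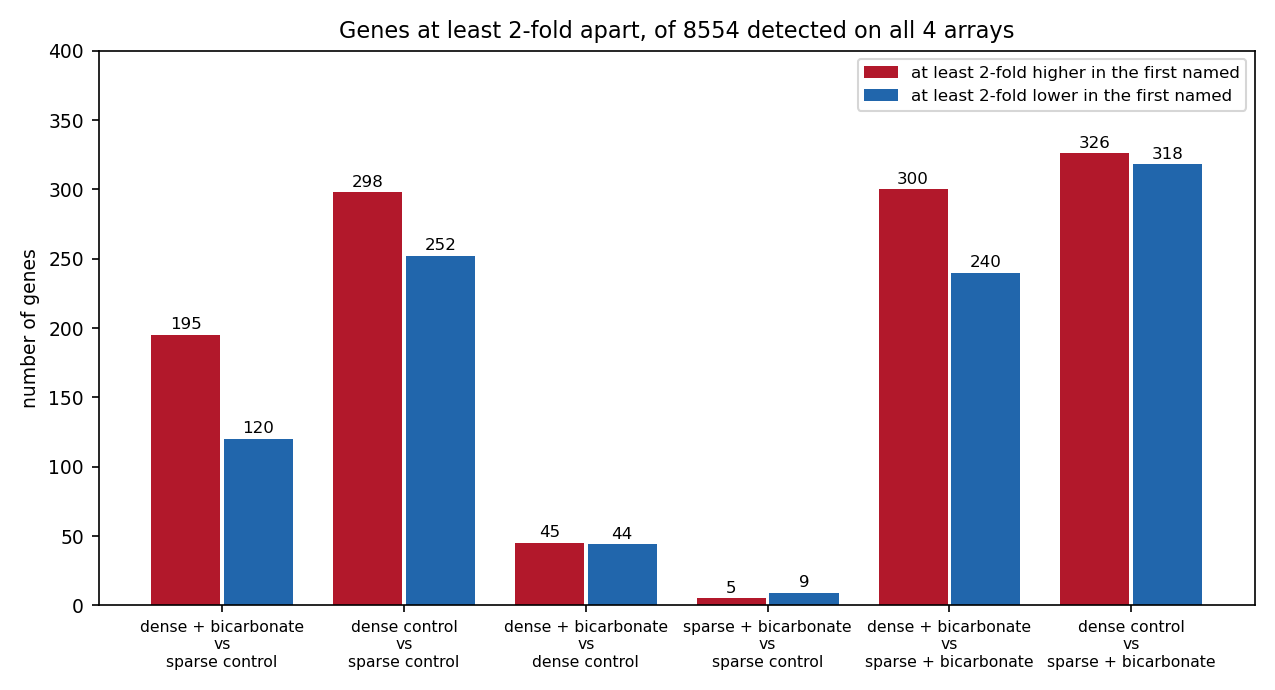
Number of genes at least 2-fold higher (red) or lower (blue) in the first-named culture of each array pair (horizontal axis), of 8554 genes detected on all 4 arrays. The buffered dense culture against the sparse control has 195 and 120 genes, fewer than any other pair of unequal density.

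The plot of array pairs places this comparison between those of equal density and the others of unequal density. The dense control and the buffered sparse culture give a density comparison made on the other 2 arrays, with the bicarbonate on the sparse side. Across the 8554 genes, the differences of both comparisons had a Pearson correlation of 0.726 and a Spearman correlation of 0.702, over genes that share the probes and the joint normalization. Of the 195 genes 2-fold higher in the buffered dense culture than in the sparse control, 122 (62.6%) were also 2-fold higher in the dense control than in the buffered sparse culture, where 3.81% of all genes were. These 122 made up 37.4% of the 326 genes higher there. Of the 120 genes 2-fold lower, 74 (61.7%) were also 2-fold lower there, where 3.72% of all genes were, and they made up 23.3% of those 318.

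**Figure D5:**
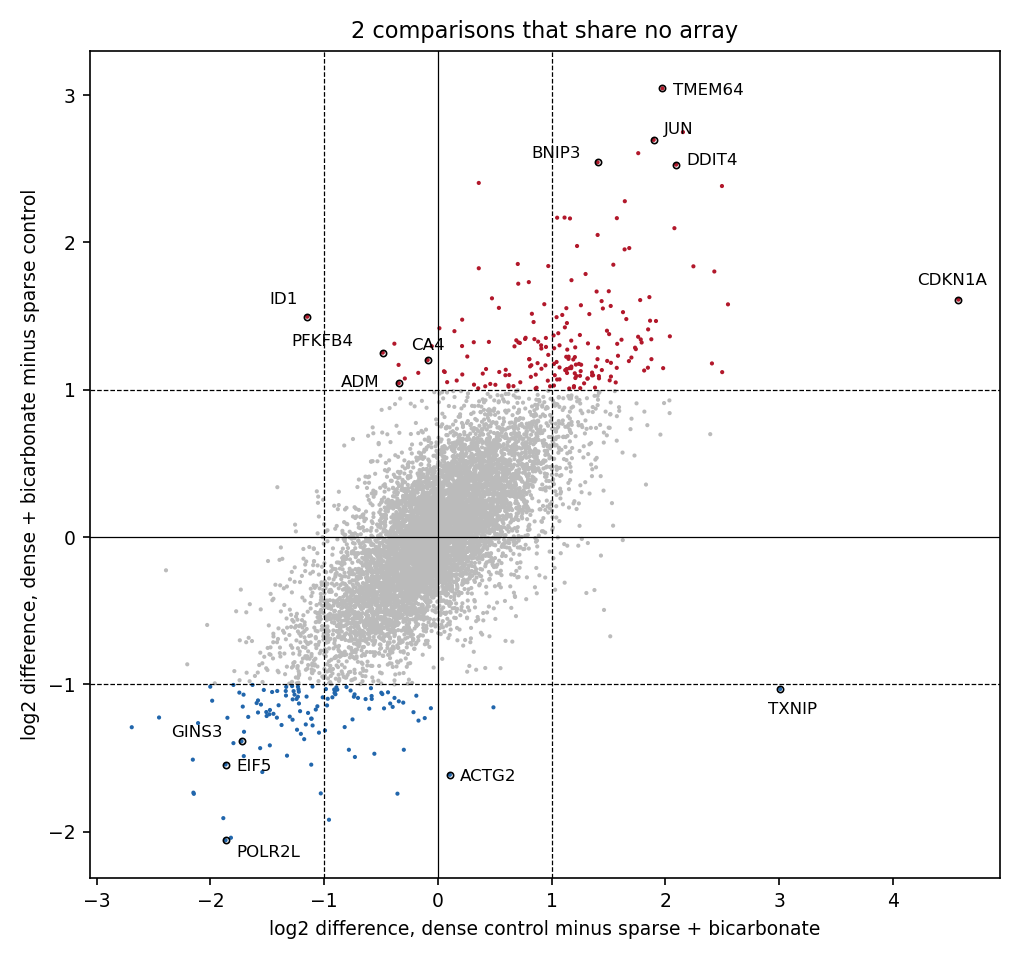
Log2 difference, buffered dense culture minus sparse control (vertical axis), against the dense control minus the buffered sparse culture (horizontal axis), 1 point per gene for 8554 genes; red and blue points are at least 2-fold higher or lower on the vertical axis, and dashed lines mark 2-fold. TMEM64, JUN, BNIP3 and DDIT4 are high on both axes, while TXNIP lies at -1.03 and 3.01 and ID1 at 1.5 and -1.15.

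A few genes took opposite signs in the plot of both comparisons. Of the 195 higher genes 9 were below 0 in the comparison on the other arrays, and of the 120 lower genes 3 were above 0. Among the 9 were ID1 (1.5, against -1.15 on the other arrays), PFKFB4 (1.25, against -0.48) and CA4 (1.20, against -0.09). ADM, the vasodilator peptide adrenomedullin and a HIF target, was also among them, at 12.51 in the buffered dense culture, 11.42 in the dense control, 11.76 in the buffered sparse culture and 11.46 in the sparse control. The 3 lower genes were TXNIP, ACTG2 and the small nucleolar RNA SNORA73A. For PFKFB4, CA4 and ADM the buffered dense array was the highest of the 4, and the dense control lay below the buffered sparse culture.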

How the data were processed

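Column-purified total RNA was labelled with biotin as cRNA for Illumina BeadChips, per the labels' protocols. The deposited table held 1 probe intensity per array and a deposited detection p-value, the share of negative controls that were brighter. Its steps point to 770 such controls. A second deposited table holds log2 values of the authors, with a median of 6.02 on every array, which served as an alternative; their normalization is not given in the sources used here.

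Background correction and quantile normalization over the 4 arrays used limma 3.58.1 (its neqc function, offset 16, R 4.3.3), with the controls' level inferred through the detection p-values. This removes any change common to all genes. Later steps ran in Python 3.11.15 (pandas 2.3.3, numpy 2.4.6, figures by matplotlib 3.10.9) and were tested on simulated data.

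Probes were named from the platform annotation, where 30098 of 47293 probes had 1 symbol, 8 several and 17187 none. A gene took the probe with the highest mean log2 intensity over the arrays among those with a detection p-value under 0.01 on at least 1 array. Groups came from the sample titles. Genes at least 2-fold and 1.5-fold apart were counted, without a test.

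The members, the 42 gene lists and the alternatives were chosen with earlier results of these data known. Named genes were the 15 highest and 15 lowest, the 4 largest fold bounds per direction, the 4 leading members of each list, and POU5F1, NANOG, SOX2, CDKN1A, TXNIP, GDF15, ID1 and GAPDH. Some further list members, the promoter motifs, the neighbouring genes and the comparison on the other 2 arrays were chosen after values were seen. Promoter windows came from RefSeq, GRCh38.p14, for 7497 of 9127 measured genes. Some lists share members. Nothing in the labels says whether cultures were handled together, and the number of arrays limits the precision.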

Additional observations from a re-analysis of the deposited data

How the results depend on the processing

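Against 234 genes 2-fold higher and 132 lower as reported, 94 and 31 were counted without background correction, 123 and 312 with equal medians, 386 and 247 without a detection filter (20037 genes), 90 and 40 at a log2 intensity of at least 8 on both arrays (5744 genes), and 25 and 52 on second probes (1968 genes). The share of 2-fold genes that were higher was 63.9% as reported, 28.3% with equal medians, 75.2% without background correction, 69.2% at a log2 intensity of at least 8 and 32.5% on second probes. Relative to the shift of -0.213 that equal medians gave all genes, 227 were higher and 124 lower. The other settings stayed within 1.5 times, with 225 and 127 under neqc on the 2 compared arrays, 194 and 95 under the authors' values, 305 and 189 at a detection p-value under 0.05, 219 and 128 with probes averaged, and 234 and 132 with the brightest probe detected on both arrays. All 94 and 31 genes without background correction were among the 234 and 132. Equal medians turned the sign of 12 list medians, which were at most 0.16 in size as reported. Over all 10 alternatives, 17 list medians turned at least once when rounded to 2 decimals, among them that of the 4 measured MondoA targets (0.04 without a detection filter). Of the named genes 4 turned: TP53I3 (0.07), SOX2 (-0.04) and LAMP2 (-0.28) on the second probe, LAMP2 also under neqc on the 2 compared arrays (-0.27), and GAPDH with probes averaged (0.02). The causes were not tested. With the disagreement between probes of 0.36 as tolerance, 13 values of list medians and 77 of named genes moved by more, besides TP53I3 and the MondoA targets. Signal over background limits dim genes most, and genes near the detection limit have bounds only. No paired analysis was possible because each group has 1 array and carries no replicate number.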

Other observations

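ESYT2 and DYNC2I1, among the 4 highest genes, are next to each other on chromosome 7 in the RefSeq gene order of measured genes. ESYT2 stood at 11.32 in the buffered dense culture, 10.67 in the dense control, 8.90 in the buffered sparse culture and 8.71 in the sparse control. DYNC2I1 stood at 10.91 in the buffered dense culture, 10.18 in the dense control, 8.03 in the buffered sparse culture and 8.17 in the sparse control. NCAPG2, a condensin subunit and the measured gene before ESYT2, differed by 0.64, DNAJB6, a co-chaperone before that, by -0.10, and the ubiquitin ligase UBE3C by 0.18. Among 9123 measured genes with a position, 8 neighbouring pairs were both at least 2-fold higher in the buffered dense culture and 1 pair was both 2-fold lower. Of all measured genes 2.56% were 2-fold higher and 1.45% lower. How many such pairs unrelated positions would give was not computed, so the counts are description only. IGFBP2 and IGFBP5, which bind insulin-like growth factors, were a higher pair on chromosome 2, at 1.38 and 1.12. The pair lower was SNORA73A and SNORA73B, at -1.16 each, whose sequences are alike.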
